A study of Mus musculus with 18 samples.

Results

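The H3K27me3 regions found in mdx BMDM alone were stretches of chromatin that carried a called H3K27me3 peak in mdx bone marrow-derived macrophages and none in WT or mdxTLR4-/- BMDM. They were chosen by merging the 3 deposited H3K27me3 peak lists on chromosomes 1 to 19, joining peaks that overlapped by at least 1 bp, and keeping merged regions touched by an mdx peak only. Of 36072 merged regions, 7698 (21.3%) met this rule, against 17005 with a peak in all 3 genotypes, 1641 with a peak in WT alone and 3006 with a peak in mdxTLR4-/- alone. By this rule each of the 7698 held exactly 1 mdx peak, because peaks of 1 list do not overlap. They made up 18.5% of the mdx peaks on these chromosomes but held 4.19% of the reads in them. The 3 lists differed in length. The mdx list was the longest, at 41558, beside 36294 for mdxTLR4-/- and 28024 for WT. Their peaks held 10173431, 7342998 and 8315029 reads in the same order. The counts of regions found in 1 genotype alone were not adjusted for list length. With each list cut to 28024 by reads per kb of peak, 3700 regions were found in mdx alone.

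BMDM were grown from bone marrow of male mice for 7 days with L929 cell supernatant, a source of macrophage colony-stimulating factor, and were not stimulated. WT mice were labelled C57BL6, mdx mice Dmdmdx-4Cv (a mutation in the dystrophin gene, Dmd), and mdxTLR4-/- mice, labelled mTLR4 with strain Bl6/Bl10, carried the mdx mutation and lacked Toll-like receptor 4. Each genotype had 2 H3K27me3 ChIP libraries and 2 inputs, with labelled ages of 12 to 13 weeks for WT, 14 to 15 for mdx and 16 to 17 for mdxTLR4-/- ChIP libraries. Inputs were labelled 6 to 11 weeks, and the H3K27ac libraries 18 weeks for their input, 19 to 20 for WT, 21 to 22 for mdx and 23 for mdxTLR4-/-. These labels rose by 1 week from each sample to the next, so that inputs differed from their own ChIP libraries, and the study's methods give a C57BL/6J background for the mice, so whether labelled age and strain are those of the mice is uncertain. Taken as they stand, genotype, labelled age and, for mdxTLR4-/-, labelled strain cannot be told apart. The authors merged the replicates before calling peaks, so each genotype was represented by 1 pooled list, replicate variation could not be measured, and no test between genotypes was made.

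H3K27me3 is trimethylation of lysine 27 of histone H3, written by the EZH1 or EZH2 subunit of Polycomb repressive complex 2 and read by Polycomb repressive complex 1. It forms broad domains over silent genes, among them developmental regulators and genes of other lineages, and it excludes acetylation of the same lysine (H3K27ac), a mark of active promoters and enhancers. In macrophages, H3K27me3 covers genes that these cells keep off, including parts of the inflammatory and alternative-activation programmes.

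The clearest member covered Mroh2a, a gene for a protein with HEAT repeats, and its start was poor in CpG. Promoters whose starts lay in members are shown as examples with few and with more CpG, 250 bases before to 50 bases after the RefSeq start (GRCm38.p6), with each CpG in capitals:
Mroh2a, chr1:88226770-88227069, plus strand, 0 CpG: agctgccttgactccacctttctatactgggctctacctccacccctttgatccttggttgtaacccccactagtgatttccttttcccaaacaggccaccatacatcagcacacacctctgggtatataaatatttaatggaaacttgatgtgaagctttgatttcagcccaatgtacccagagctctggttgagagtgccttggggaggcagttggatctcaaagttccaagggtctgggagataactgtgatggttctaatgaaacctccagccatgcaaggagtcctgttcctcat
Lcn2, chr2:32387690-32387989, minus strand, 3 CpG: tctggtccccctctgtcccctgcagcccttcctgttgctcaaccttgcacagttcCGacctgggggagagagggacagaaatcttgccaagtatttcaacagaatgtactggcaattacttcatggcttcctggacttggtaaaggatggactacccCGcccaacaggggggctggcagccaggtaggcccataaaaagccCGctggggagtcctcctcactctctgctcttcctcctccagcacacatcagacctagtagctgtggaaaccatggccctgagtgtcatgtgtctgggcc
Bhlha15, chr5:144190036-144190335, plus strand, 17 CpG: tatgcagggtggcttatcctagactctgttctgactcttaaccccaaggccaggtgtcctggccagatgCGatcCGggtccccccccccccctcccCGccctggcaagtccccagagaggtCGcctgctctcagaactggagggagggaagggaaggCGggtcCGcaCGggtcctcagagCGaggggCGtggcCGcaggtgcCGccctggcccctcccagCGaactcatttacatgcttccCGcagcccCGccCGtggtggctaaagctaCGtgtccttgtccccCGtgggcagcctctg
Prkcb, chr7:122288875-122289174, plus strand, 19 CpG: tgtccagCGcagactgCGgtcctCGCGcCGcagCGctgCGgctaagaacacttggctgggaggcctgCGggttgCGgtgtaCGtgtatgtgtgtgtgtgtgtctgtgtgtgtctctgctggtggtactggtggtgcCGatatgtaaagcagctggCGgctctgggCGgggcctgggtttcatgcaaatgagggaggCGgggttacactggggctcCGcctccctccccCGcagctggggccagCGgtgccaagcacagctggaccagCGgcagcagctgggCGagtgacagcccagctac
Lcn2 encodes lipocalin-2, a siderophore-binding protein of neutrophils and activated macrophages, Bhlha15 a transcription factor of secretory cells, and Prkcb protein kinase C beta. Across the 273 RefSeq promoters whose start lay in a member, the median was 4 CpG (letters CG, the same on both strands; quartiles 2 and 9), and 23.1% (Wilson 95% interval 18.5 to 28.4) held at least 10. Among the 7724 promoters starting in regions shared by all 3 genotypes the median was 8 CpG and 44.1% (43 to 45.2) held at least 10, beside 44% of all 31396 autosomal promoters. The few promoters under mdx-alone regions were thus poorer in CpG than those under shared regions, by intervals that did not overlap.

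The members were short and shallow. The median length was 2200 bp (quartiles 1600 and 2800, range 200 to 36800), against 9200 bp for shared regions, 3800 bp for regions found in WT alone and 2000 bp for those found in mdxTLR4-/- alone. The median read count in the mdx list was 50 (quartiles 41 and 63, range 18 to 1890). Read density, the reads per kb of peak, had a median of 23.9 (quartiles 21.3 and 27.5) in members, against 31.2 in the mdx list over shared regions. Of the members, 345 were shorter than 1 kb, 315 held at least 100 reads and 6 were at least 10 kb long. These values were used by the rule through the calling limit of each list and are given as a description.

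Absence from a list is not a read count of 0, because only called peaks were deposited. Peaks of the same length differed between lists in the fewest reads they held. At 2200 bp, the lowest count was 43 reads among 532 WT peaks, 36 among 1982 mdx peaks and 29 among 1549 mdxTLR4-/- peaks, while the 681 members of that length held 36 to 89 reads with a median of 51. Over shared regions the read density was 1.22 times higher in the mdx list than in the WT list and 1.27 times higher than in the mdxTLR4-/- list (medians). With mdx reads divided by these ratios, 1582 members (20.6%, Wilson 95% interval 19.7 to 21.5) reached the 5th percentile of WT peaks of their length, and 6207 (80.6%, 79.7 to 81.5) reached that of mdxTLR4-/- peaks. Both limits were reached by 1537 members (20%, 19.1 to 20.9). These 1537 had a median length of 3200 bp and a median of 79 reads, and the other 6161 had 2000 bp and 46 reads. Without dividing by the ratios, 4783 members (62.1%, 61 to 63.2) reached the WT 5th percentile, 7686 (99.8%) that of mdxTLR4-/- and 4782 both. Most members thus lay below the WT limit with this scaling and above it without.

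**Figure D1:**
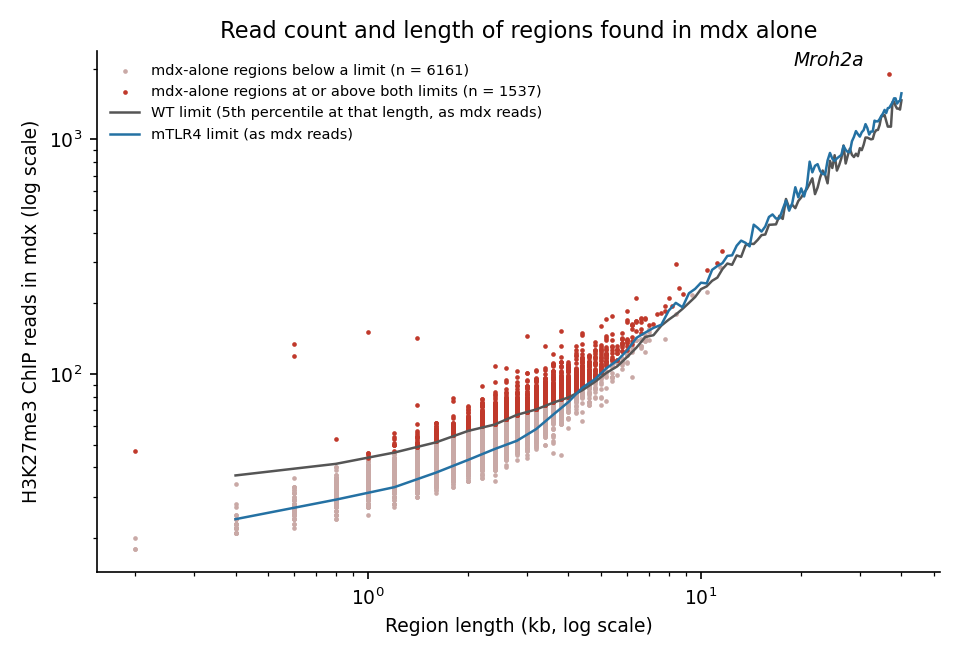
Length (kb) and H3K27me3 ChIP reads in mdx of each region found in mdx alone, both on log scales, 1 point per region, with lines for the 5th percentile of read counts of WT and mdxTLR4-/- (mTLR4) peaks of the same length multiplied by the mdx to list density ratio. The 1537 darker points reach both limits, and most points lie under the WT line, which includes that ratio (4782 reach both limits without it), while Mroh2a stands apart at 36.8 kb and 1890 reads.

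The Mroh2a region was far larger than any other member. It ran from chr1:88225401 to chr1:88262200 (mm10), 36800 bp, and held 1890 mdx reads (exact Poisson 95% interval 1806 to 1977), or 51.4 reads per kb. It began shortly before the annotated start of Mroh2a, lay over all 43 of its merged exons, and covered 99.7% of the gene body in the mdx list and 0% in the WT and mdxTLR4-/- lists. Divided by the density ratios, its count stood at 1552 against a WT 5th percentile of 930 and at 1492 against an mdxTLR4-/- 5th percentile of 1077, above both limits. The lowest counts among the 50 peaks nearest in length were 758 in WT and 967 in mdxTLR4-/-.

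Its flanks were marked differently. A second member of 1400 bp and 39 reads lay just upstream, at chr1:88223001-88224400, and touched an mdx H3K27ac peak of 10 reads. On that side the Ugt1a genes, which encode enzymes that conjugate bilirubin and drugs, carried no H3K27me3 peak in any list, and the nearest shared region on that side was 618 kb away. On the other side lay Hjurp, a centromere histone chaperone whose start carried H3K27ac in all 3 genotypes. A shared domain over Trpm8, a cold-activated ion channel, began 13.6 kb from the member, inside Hjurp. Its WT and mdxTLR4-/- peaks lay over the Hjurp start and covered 12.1% and 2.86% of that gene body, against 0% in mdx. The Trpm8 domain was called in all 3 lists, where its first peak held 2005 (WT), 1955 (mdx) and 1413 (mdxTLR4-/-) reads. The Trpm8 domain thus held reads of the same order in each genotype where the Mroh2a peak was in the mdx list alone. H3K27ac on Mroh2a was limited to 1 mdxTLR4-/- peak of 6 reads inside the gene, and the start itself carried no H3K27ac peak in any genotype.

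**Figure D2:**
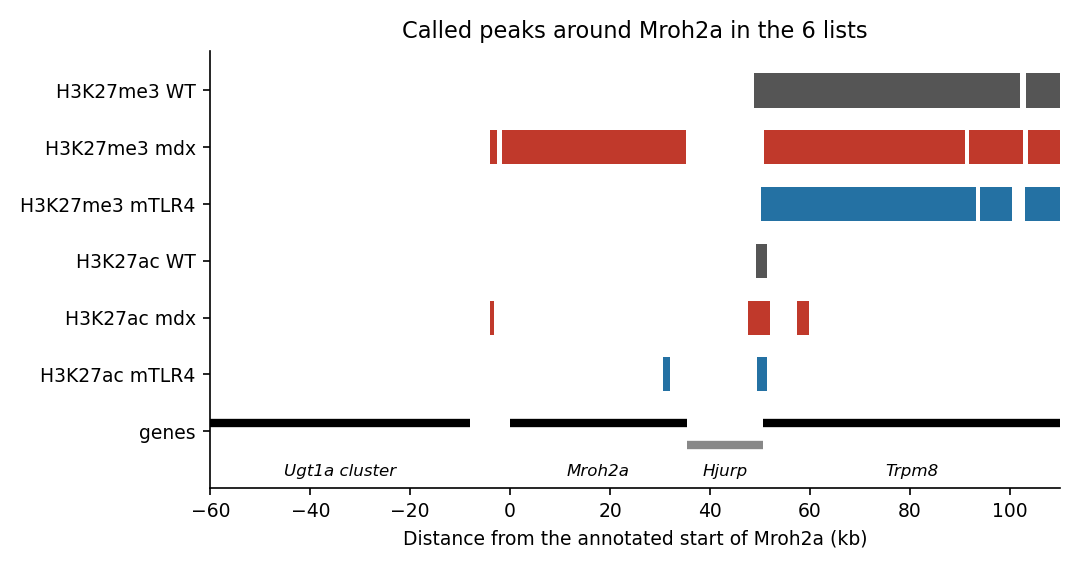
Called peaks of H3K27me3 and H3K27ac in WT, mdx and mdxTLR4-/- (mTLR4) BMDM and selected genes, by distance in kb from the annotated start of Mroh2a; each block is 1 peak, with no height. The 36.8 kb block over Mroh2a is present in the mdx H3K27me3 row only, and the domain over Trpm8 is present in all 3 rows.

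After Mroh2a the read counts fell to 333. That second member, at chr17:13176001-13187600, was intergenic and 11600 bp long. The third, at chr4:118226201-118237400 in Ptprf, a receptor tyrosine phosphatase gene, held 298 reads and lay between shared regions 0.8 kb to its left and 1.4 kb to its right. The fourth, at chr14:59990401-59998800 in Atp8a2, a phospholipid flippase gene, held 295 reads over 8400 bp. The next 6 lay over Ip6k3 (285 reads), Ccdc85c (278), Fbln1 (233), a stretch with no protein-coding gene at chr11:21496801-21507200 (223), Cfap97d2 (220) and Adgrd1 (217). Of the 10 members with the most reads, those over Ip6k3 and Adgrd1 and the one on chromosome 11 did not reach both limits.

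Density ordered the members differently. Among members of at least 2 kb, the Mroh2a region had the highest density, followed by chr5:28097001-28100000 (145 reads, 48.3 per kb), chr5:136727801-136730200 (108 reads, 45 per kb), the region over Hmga1b (106 reads, 40.8 per kb) and chr17:37205001-37207200 (89 reads, 40.5 per kb). Among members of any length, the highest densities were in short peaks: 47 reads in 200 bp near the start of the chromosome 9 sequence, 134 reads in 600 bp in Cdk8, 119 reads in 600 bp in Aida, 151 reads in 1000 bp in E030030I06Rik and 143 reads in 1400 bp in Lars2. Whether reads there were shared with copies elsewhere in the genome was not tested.

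Members rarely lay over the start of a gene. Of the 7698, 436 (5.66%, Wilson 95% interval 5.17 to 6.2) contained an annotated transcription start, against 37% (36.2 to 37.7) of shared regions, 9.57% (8.24 to 11.1) of regions found in WT alone and 5.76% (4.98 to 6.65) of those found in mdxTLR4-/- alone. Starts of protein-coding genes lay in 2.16% of members and in 24.9% of shared regions. Shared regions were longer, so regions of 1600 to 2800 bp were also compared: 5.59% (4.94 to 6.33) of 4237 members and 22.2% (18.5 to 26.3) of 442 shared regions of that length contained a start. The difference in length therefore did not remove the difference between members and shared regions.

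By position, 1220 members (15.8%) overlapped an exon without a start, 2269 (29.5%) lay in introns, 516 (6.7%) lay in the 5 kb before a gene and 3257 (42.3%) were intergenic. Introns held 11% of shared regions, and 25.5% of shared regions were intergenic. The middle of a member lay inside a gene in 47.5% (46.3 to 48.6) of cases, an interval that held the 47.2% of autosomal bases inside genes. For shared regions the middle lay in a gene in 51.3% (50.5 to 52). The median distance from the middle of a member to the nearest protein-coding start was 42.4 kb (order-statistic 95% interval 40.9 to 44.1), against 23.8 kb (23.1 to 24.5) for shared regions.

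**Figure D3:**
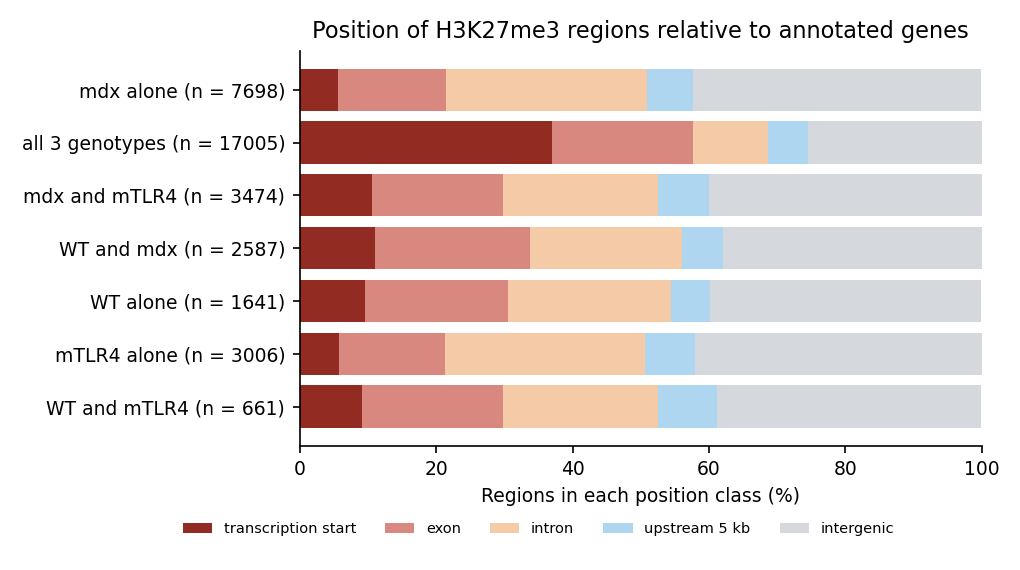
Share (%) of regions in each position class, for each pattern of presence in the 3 lists; a region counts once, as a transcription start, else exon, intron, 5 kb upstream or intergenic. Starts make up 5.66% of regions found in mdx alone and 37% of regions found in all 3 genotypes.

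Many members lay near shared domains. The median distance to the nearest region shared by all 3 genotypes was 12.6 kb (order-statistic 95% interval 12 to 13.2, quartiles 3 and 44.8 kb). Within 2 kb of a shared region lay 1601 members (20.8%), within 10 kb 3519 (45.7%), and beyond 100 kb 1055 (13.7%). Of the autosomal bases outside shared regions, 2.37% lay within 2 kb of a shared region, 8.43% within 10 kb and 63.1% beyond 100 kb, so members were closer to shared regions than these bases. Regions found in WT alone (14 kb, 12.6 to 15.8) and in mdxTLR4-/- alone (13.6 kb, 12.4 to 15) lay at distances whose intervals overlapped that of the members. Regions found in mdx and mdxTLR4-/- (7.6 kb, 7 to 8.2) and in WT and mdx (7.2 kb, 6.6 to 8) lay closer.

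A subset of 913 members (11.9%) had a shared region within 10 kb on both sides. The shared region nearest to a member had a median length of 7.8 kb, against 9.2 kb for all shared regions. Of the 2948 members whose middle lay in a protein-coding gene, 2421 (82.1%, 80.7 to 83.5) lay in a gene that a shared region also touched, while genes of that kind make up 47% of protein-coding gene bases. The same share was 79.9% (76.6 to 82.8) for regions found in WT alone and 79.2% (76.7 to 81.5) for those found in mdxTLR4-/- alone. Genic members thus lay mostly in genes that already carried H3K27me3 in every genotype, and so did regions found in one other genotype.

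Distance went with depth and base content. Members within 2 kb of a shared region had a median density of 25 reads per kb and reached both limits in 24.4% of cases, and members beyond 100 kb had 23.5 reads per kb and did so in 14.3%. Median GC content was 45.6% and 44.5%, and the ratio of observed to expected CpG was 0.183 and 0.165, in these 2 groups. Over all members the median GC content was 45.5%, against 46.7% in shared regions and 41.9% over the autosomes. The median ratio of observed to expected CpG was 0.178 (order-statistic 95% interval 0.176 to 0.18), against 0.211 (0.21 to 0.212) in shared regions. A median of 21.5% of bases was masked as repetitive in the RefSeq sequence, against 22.9% in shared regions and 33.5% over the autosomes.

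**Figure D4:**
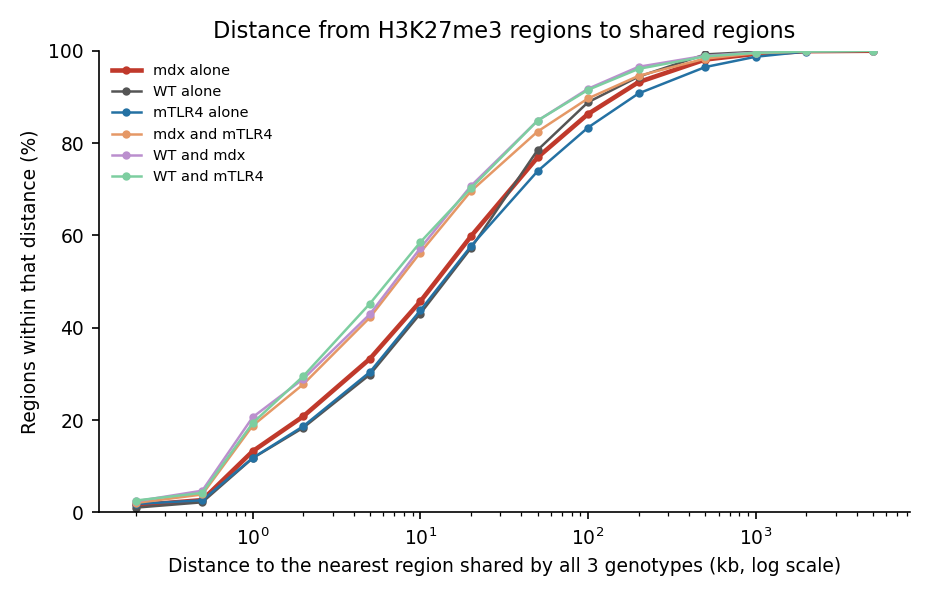
Cumulative share (%) of regions by distance (kb, log scale) to the nearest region shared by all 3 genotypes, 1 line per pattern of presence. The line for mdx alone passes 20.8% at 2 kb and 45.7% at 10 kb, and at these distances lies above the lines of the other single-genotype patterns and under those of the 2-genotype patterns.

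The edge of the rule was gradual. A WT or mdxTLR4-/- peak lay within 200 bp of 228 members (median 50 reads, 24.1 reads per kb), and 261 mdx peaks fell just outside because such a peak overlapped 200 bp or less of them (median 51 reads, 23.9 reads per kb). Both sets had a median length of 2200 bp. Within 600 bp, the gap across which the caller joined windows, lay 587 members (7.63%).

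Members also occurred in rows. With no other region between them, 4129 members (53.6%) stood alone, and the rest formed rows of 2 to 7. The 5 rows of 7 spanned 73.2 to 1224 kb, and their members held between 36 and 109 reads each. The tightest, at chr3:55076601-55149800, lay across Spg20, which encodes spartin, and Ccdc169. The row at chr10:87706601-87949400 lay across Igf1, an insulin-like growth factor gene made by macrophages and muscle, and held 36 to 58 reads a member. The row at chr14:53807001-53985600 lay in the T cell receptor alpha and delta variable segments, 3 of its 7 members over a segment. The rows at chr14:71073401-72297400 and chr1:61080801-61394200 held no protein-coding gene.

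By chromosome, members ranged from 24 per 10 Mb on chromosome 4 to 42.2 on chromosome 13, and they made up 17.9% (chromosome 11) to 27.2% (chromosomes 3 and 18) of all merged regions.

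Of 20807 autosomal protein-coding genes, 172 (0.827%) had their annotated start in a member, and 5164 (24.8%) had it in a shared region. A RefSeq promoter was found for 120 of the 172, and for 98 of these the RefSeq start also lay in a member. The 22 others included Por, Prss54, Olfr690, Olfr324, Aqp9, Gpr35, Drd3 and Slc26a3, described next by their annotated start. The 25 with the most reads in the member held 79 to 1890 reads. For 22 of these 25 the member reached both limits, and over all 172 genes this held for 47. The 25 were picked by the same reads that the limits use, so a high count among them was set by the choice. Some of the 25, such as Gm3409, Gm2956 and Hmga1b, have near-identical copies, so the assignment of their reads is uncertain.

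H1fnt, a histone H1 of spermatids, had a member of 119 reads 0.4 kb from a shared region. Genes of membrane channels were Kcnk18, a potassium channel of sensory neurons (103 reads over 4000 bp), and Gjb5, a connexin of epithelia (86 reads over 3200 bp). Both lay 1.4 kb or less from a shared region. Secreted antioxidant enzymes were represented by Sod3, the extracellular superoxide dismutase (88 reads), and Gpx3, a glutathione peroxidase of plasma (81 reads). The Sod3 member lay 2.4 kb and the Gpx3 member 284 kb from the nearest shared region.

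Among regulators, the Bhlha15 member held 123 reads over 4200 bp and reached both limits (101 scaled reads against 69 in WT, and 97.1 against 63 in mdxTLR4-/-). The Prkcb member held 112 reads over 5400 bp and reached the WT limit (92 against 85) but not the mdxTLR4-/- limit (88.4 against 89.2). Olfactory receptors were Olfr690 (108 reads) and Olfr750 (86 reads). Metabolic genes were Hsd17b6, a steroid dehydrogenase (80 reads), and Acsf2, an acyl-CoA synthetase (79 reads). Por, which encodes cytochrome P450 reductase, had a member of 80 reads over its first annotated start, while its RefSeq start lay outside any member. Xrcc5, which encodes the Ku80 subunit of the DNA end-joining machinery, had a member of 79 reads. The other members of this group were over Sept14 (210 reads), Fam166b (140), Ptpdc1 (117), Armc12 (105), Tex45 (102), Fam83a (98), Gm10842 (86) and Prss54 (80).

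Gene families showed how sparse members were at starts. Of 196 developmental transcription factor genes, 167 had their start in a shared region and 0 in a member. Starts in members were also at 0 for Wnt ligands and receptors (0 of 38), collagens (0 of 43), chemokine ligands and receptors (0 of 51), interleukins and receptors (0 of 77), interferon-stimulated genes (0 of 63) and Toll-like receptors (0 of 9). At these list sizes a count of 0 allows shares of up to 1.53% (196 genes), 5.88% (51 genes) and 33.3% (9 genes), all above the background of 0.827%, so a lower share than background was not detectable. The highest share was in orphan and adhesion G protein-coupled receptors, with 6 of 89 (6.74%, Wilson 95% interval 3.13 to 13.9), among them Adgrl4, an adhesion receptor of endothelium (78 reads), Gpr158 (58) and Gpr35 (47). Of these 6 starts, 2 lay in a member that reached both limits, and the interval makes no allowance for picking the highest list. In the Gpr35 window, peaks covered 14.9% in mdx and 15.4% in mdxTLR4-/-.

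The other lists had 8 or fewer starts each. Solute carriers had 5 of 358, among them Slc26a3 (75 reads) and Slc40a1, the iron exporter ferroportin (68 reads over 2200 bp, both limits reached). Protocadherins on chromosome 18 had 3 starts of 95 in the cadherin list, at Pcdhga2 (53 reads), Pcdhga4 (44) and Pcdha11 (30). Keratins had 2 of 53 (Krt20, 64 reads, and Krt9, 38), serpins 2 of 60 (Serpina3k and Serpina3m, which share 1 member of 38 reads), zinc finger genes 2 of 385 (Zfp354c, 56, and Zfp804b, 31) and olfactory receptors 8 of 1128, with Olfr324 (52) and Olfr332 (49) after those above. In WT, mdx and mdxTLR4-/-, peaks covered 30.3%, 20.1% and 20.5% of the Serpina3k window and 33.7%, 39.3% and 16.3% of the Serpina3m window. A start in a member thus did not always go with more of the window under peaks in mdx. Single starts were Kcnk18 (above) among 131 voltage-gated and potassium channel genes, Drd3, a dopamine receptor (36 reads), Inhba, the activin A subunit (44 reads), and Cyp2r1, a vitamin D hydroxylase (35 reads). Vomeronasal receptors (329 genes), ribosomal protein genes (78), matrix proteases and inhibitors (77), lipid and scavenger genes (63), TNF superfamily symbols (41) and C-type lectins (30) had 0.

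Taking the whole gene window, from 5 kb before a gene to 1 kb past its end, 2080 protein-coding genes (10.0%) were touched by a member. The share of window bases under members, which does not grow with gene length, was 0.708% over all protein-coding genes. It was 2.33% for TGF-beta family ligands (28 genes), 2.03% for keratins, 1.74% for TNF superfamily symbols, 1.55% for C-type lectins, 1.43% for orphan and adhesion G protein-coupled receptors, 1.35% for collagens and 1.28% for the pro-fibrotic list of the study. It was 0.452% for developmental transcription factors, 0.161% for Wnt genes and 0.117% for vomeronasal receptors. The 4 highest values came from lists with 1.2 Mb of windows or less, in which a few members can set the share.

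**Figure D5:**
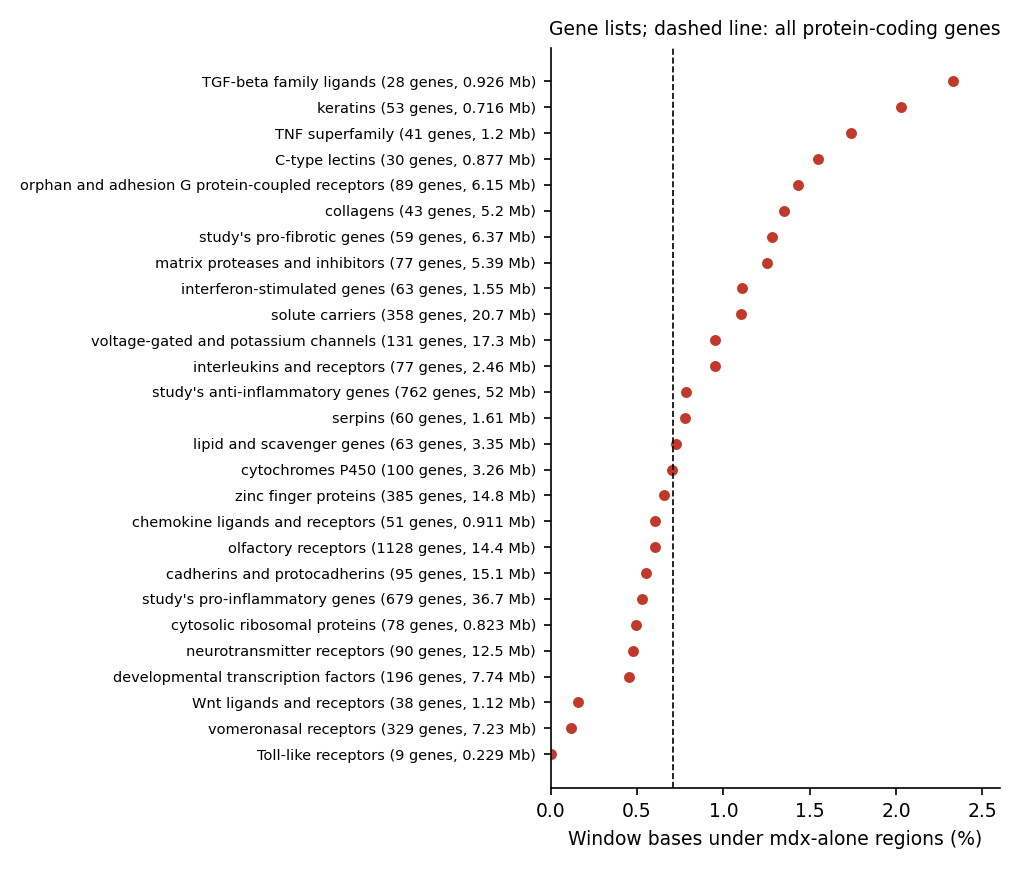
Share (%) of gene window bases under regions found in mdx alone, 1 point per gene list, with the number of genes and Mb of windows in brackets; the dashed line marks all protein-coding genes (0.708%). TGF-beta family ligands lie highest at 2.33% and Toll-like receptors lie at 0.

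In the inflammatory gene lists, whose genes the study chose, the intervals for starts in members held the background for the pro- and anti-inflammatory genes. For the pro-fibrotic genes the interval lay above the background, on 2 starts, neither of them in a member that reached both limits. Starts in members numbered 8 of 679 pro-inflammatory genes (1.18%, Wilson 95% interval 0.598 to 2.31), 4 of 762 anti-inflammatory genes (0.525%, 0.204 to 1.34) and 2 of 59 pro-fibrotic genes (3.39%, 0.935 to 11.5). Windows were touched in 9.87% (7.85 to 12.3), 12.3% (10.2 to 14.9) and 23.7% (14.7 to 36) of them, against 10.0% of all protein-coding genes. The last 2 intervals lay above that share, and the pro-fibrotic genes had longer windows (median 45.4 kb against 23.6 kb). The share of window bases under members was 0.531% for the pro-inflammatory, 0.785% for the anti-inflammatory and 1.28% for the pro-fibrotic list.

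Among pro-inflammatory genes with a start in a member were Por, Slc40a1, Lcn2 and Aqp9, a water and glycerol channel (51 reads), with the RefSeq starts of Por and Aqp9 outside members. The Lcn2 start lay in a member of 2800 bp and 64 reads (exact Poisson 95% interval 49.3 to 81.7), a second member of 46 reads lay at the end of the gene, and together they covered 45.7% of the window, with no WT or mdxTLR4-/- peak in it. The member over the Lcn2 start did not reach the WT limit (52.6 scaled reads against 55) and reached that of mdxTLR4-/- (50.5 against 41). Anti-inflammatory genes were Eps8, an actin regulator (73 reads, both limits reached), Slc40a1, Aqp9 and Lat, a T cell receptor adaptor (50 reads). Pro-fibrotic genes were Fgf1 (48 reads) and Inhba. Neither member reached the WT limit (39.4 scaled reads against 49 for Fgf1, and 36.1 against 45 for Inhba), while both reached that of mdxTLR4-/-. Peaks covered 67.3% (WT), 67.7% (mdx) and 65% (mdxTLR4-/-) of the Fgf1 window, and 15.5%, 23.3% and 17.1% of that of Inhba.

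In 499 of the 2080 touched genes (24%), no WT or mdxTLR4-/- peak lay anywhere in the window. These held 19 of the 67 touched pro-inflammatory genes, 22 of the 94 touched anti-inflammatory genes and 1 of the 14 touched pro-fibrotic genes, Tcf3. The following were picked after their values were seen. Ccl17, a chemokine of alternatively activated macrophages, had a member of 4600 bp and 109 reads (89.5 to 131) that ended 1.45 kb before its start, covered 46.8% of the window and reached both limits. Cxcl9 (35 reads), Ifit3 (42) and Oasl2 (36), which respond to interferon, each had 1 member inside or at the end of the gene, and none of these 3 reached both limits.

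Among inflammatory marker genes measured singly in the study, Il12a had a member in its window. Il12a encodes the p35 subunit of interleukin-12, and the member at chr3:68684801-68688000, upstream of its start, held 61 reads over 3200 bp. It took up 17% of the window, in which both other genotypes also had peaks elsewhere. This member did not reach the WT limit (50.1 scaled reads against 58) and reached that of mdxTLR4-/- (48.2 against 46). Peaks covered 28.8% (WT), 50% (mdx) and 25.9% (mdxTLR4-/-) of the Il12a window. The study showed lower H3K27me3 at Il12a in mdx than in WT BMDM, at the locus and by ChIP-qPCR at the promoter. It also reported a lower signal in mdx across the genome, with an increase in mdx alone as its rarest altered pattern. Those were read intensities against input and promoter occupancy, measures unlike the presence of called peaks used here. No member lay in the windows of Nos2, the inducible nitric oxide synthase, or of Tnf, Il6, Tgfb1, Mrc1, Chil3 (YM1) or Arg1, nor in that of Tlr4. Over all protein-coding genes, members touched 10.0% of windows.

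Long genes held the most members, and the following were also picked after their values were seen. Fat3, an atypical cadherin, and Phactr1, an actin and phosphatase regulator, each had 22 members in the window, and Atp8a2 had 19. Members covered 10.1%, 10.7% and 10.1% of these windows, which were 597.1, 463.9 and 564.6 kb long. Tjp1, which encodes the tight junction protein ZO-1, had 12 members over 13.4% of a 237.6 kb window.

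Few members touched an H3K27ac peak, as was also the case for shared regions of the same length. Of the 7698, 29 (0.377%, Wilson 95% interval 0.262 to 0.541) touched an H3K27ac peak of WT BMDM, 18 (0.234%, 0.148 to 0.369) one of mdx BMDM and 30 (0.39%, 0.273 to 0.556) one of mdxTLR4-/- BMDM. Over all 36072 merged regions the shares were 1.29%, 1.03% and 1.00%. Per Mb of members there were 1.61, 1 and 1.67 H3K27ac peaks, against 1.41, 1.07 and 1.05 per Mb of shared regions and 6.08, 4.7 and 4.96 per Mb of autosome. A peak was counted where it touched a region at all, so short regions gain more per Mb from their edges. These rates are therefore not directly comparable. At lengths of 1600 to 2800 bp, 31 of 4237 members (0.732%, 0.516 to 1.04) and 3 of 442 shared regions (0.679%, 0.231 to 1.98) touched an H3K27ac peak of any genotype, by intervals that overlapped. The intervals of the 3 genotypes overlapped one another, but all were drawn from the same 7698 regions, so they do not compare separate sets. The H3K27ac lists also differed in size, with 14962 (WT), 11581 (mdx) and 12204 (mdxTLR4-/-) peaks.

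Only 6 members touched an H3K27ac peak in all 3 genotypes, 20 touched one of WT alone, 11 one of mdx alone and 22 one of mdxTLR4-/- alone, and 7636 touched none. The H3K27ac peaks concerned had medians of 10 (WT), 8 (mdx) and 5 (mdxTLR4-/-) reads, beside 11, 10 and 8 over all H3K27ac peaks of each list. One protein-coding gene had its start in a member with H3K27ac in WT and not in mdx BMDM: Lilra5, a leukocyte immunoglobulin-like receptor gene, with 62 H3K27me3 reads over 3000 bp in mdx. One had the opposite: Itgb2l, an integrin beta gene, with 36 reads over 1800 bp. Neither member reached both limits. H3K27ac had 2 pooled ChIP libraries each in WT and mdx BMDM, and 1 in mdxTLR4-/- BMDM.

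The lists were also checked against cell type markers. An H3K27ac peak lay in the window of 12 of 12 macrophage markers in each genotype, one lay at the start of 8 (WT), 7 (mdx) and 8 (mdxTLR4-/-) of them, and members touched 0 of these 12. At the starts, H3K27ac lay on 0 of 10 neutrophil, 0 of 8 T lymphocyte, 0 of 6 B lymphocyte, 0 of 5 erythroid, 0 of 6 fibroblast and 0 of 6 muscle markers in each genotype, and on 1 of 5 endothelial markers in mdx BMDM only. In the windows, it lay on 0 neutrophil, erythroid and muscle markers, 1 T lymphocyte marker in each genotype, and, in the order WT, mdx, mdxTLR4-/-, on 2, 1 and 1 B lymphocyte, 2, 2 and 3 fibroblast and 2, 3 and 3 endothelial markers. Members lay over the starts of 1 of 10 neutrophil markers (Lcn2) and 1 of 8 T lymphocyte markers (Lck). The member at Lck, the T cell kinase, held 79 reads over 3200 bp and reached both limits. With S100a8, Bcl11b, Pax5 and Ebf1, members touched 2 of 10 neutrophil, 2 of 8 T and 2 of 6 B lymphocyte windows. Erythroid, fibroblast, endothelial and muscle windows had 0. Over all protein-coding genes, 0.827% of starts and 10.0% of windows were touched, and lists this short cannot resolve shares near these. In WT and in mdxTLR4-/-, H3K27me3 peaks lay on the starts of 2 neutrophil, 5 T and 3 B lymphocyte markers, and in mdx on 3, 7 and 4. One macrophage marker start of 12 lay under an H3K27me3 peak in WT, and 0 in mdx and mdxTLR4-/-.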

How the data were processed

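Per the submitters' processing notes, reads were handled with CASAVA 1.8, cutadapt 1.15, Bowtie2 2.3.4 and SICER 2.0 on mm10. The authors merged replicates and called peaks at an FDR under 0.01, joining 200 bp windows over gaps of 600 bp. The deposited values are raw counts of ChIP reads per peak, not scaled for depth or length, with no input subtracted; library depth is unknown, and duplicate removal and excluded regions are not given in the sources used here.

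Peaks were merged with Python 3.11.15, numpy, pandas 2.3.3 and scipy; the procedure was tested on simulated peaks with known answers. Genes were GENCODE vM21, promoters RefSeq GRCm38.p6. The detection limit was the 5th percentile of read counts of peaks of the same length in a list, or of the 50 nearest in length where under 20 had it. The limit for mdxTLR4-/- was added after seeing the data. Intervals cover counting error or spread over regions only. The members and gene lists were chosen with earlier results of these data known. Named were the 10 members with most reads, the 5 densest of at least 2 kb, the 25 protein-coding genes with a start in a member by reads, up to 4 genes a list (families by symbol, and the study's 3 lists), the 5 longest rows, up to 6 genes by H3K27ac each way, and marker genes the study measured singly. A gene picked this way was left out of the text. Alternatives covered peak length and density, list size, merging distance, gene sets, windows, overlap and the limits.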

Additional observations from a re-analysis of the deposited data

How the results depend on the processing

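The number of regions found in mdx alone was 7698; it was 5593 with peaks of at least 2 kb, 5635 with a stricter density, 7111 with peaks up to 600 bp apart merged, 7766 with chromosome X and 7866 where WT and mdxTLR4-/- peaks could cover up to 10%. It moved by over 1.5 times when each list was cut to 28024 peaks by density (3700) and with the detection limits (1582 for WT, 4783 for WT without scaling, 1537 for both). The share over a transcription start (5.66%) was 7.21% with peaks of at least 2 kb, 8.34% and 8.26% with the WT and both limits, 9.38% with starts widened by 1 kb and 2.16% with protein-coding genes. The share inside genes (51%) was 52.9% with the WT limit and 39.7% with protein-coding genes. The median distance to a shared region (12.6 kb) was 15 kb with peaks of at least 2 kb, 16.5 kb with equal lists, 13.6 kb with merging, 8.6 kb and 8.4 kb with the WT and both limits, 51.3 kb to shared regions of at least 10 kb and 4.4 kb to any region with a WT or mdxTLR4-/- peak. The share touching H3K27ac in any genotype (0.805%) was 1.14% with the WT limit, 0.273% with H3K27ac peaks of at least 10 reads and 2.08% within 1 kb. The number of genes with a start in a member (172) was 88 with equal lists, 49 and 47 with the limits, 280 with starts widened by 1 kb and 469 with all annotated genes. With both limits the median read count moved from 50 to 79 and GC content from 45.5% to 45.7%. Widened starts and other gene sets or region sets change these values by construction; for the rest the cause was not tested. The other 12 of 40 values stayed within 1.5 times for counts or within the main interval. No paired analysis was possible because the authors merged the replicates ahead of peak calling, and for the same reason no replicate could be left out. Library depth is unknown; the lowest read count among WT peaks of their length was reached by 41.5% of members with scaling and 85.6% without.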

Other observations

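Annotated starts of genes other than protein-coding ones also lay in members. They were the starts of 96 processed pseudogenes (1.08% of those annotated on the autosomes), 58 long intergenic RNAs (1.11%), 29 antisense RNAs (0.996%), 18 unprocessed pseudogenes (1.01%) and 11 miRNA genes (0.536%), beside 0.827% of protein-coding genes. Higher shares were found for T cell receptor segments, with 7 of 70 joining (10%) and 6 of 144 variable (4.17%) segments, and for transcribed unprocessed pseudogenes (6 of 221, 2.71%). Neighbouring segments can share 1 member, so the segment counts are not counts of separate regions. The member at chr14:54178601-54182400, for example, lay over Traj39, Traj38 and Traj37. The miRNA genes included Mirlet7a-2, of the let-7 family, and Mir673. The antisense and pseudogene counts overlap with other genes and are uncertain.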
